A study of Mus musculus with 17 samples.

Results

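The amino acid response genes of ATF4 comprised Atf4, Ddit3, Trib3, Chac1, Asns, Psat1, Phgdh, Slc7a11, Sesn2 and Slc3a2. They were taken by symbol from the 55359 genes of a single count table, and all 10 were found. RNA was sequenced from 17 libraries, labelled by organ, genotype and age (P1). By the study's methods the pups were males of the Ocn_GK strain, in which osteocalcin (Ocn) was inactivated by homologous recombination on a 129/SvEv background. There were 8 testes libraries, 2 from WT pups, 3 from Ocn+/- pups (labelled Het) and 3 from Ocn-/- pups (labelled KO), and 9 libraries labelled hippocampus, 3 for each genotype. The study describes this last tissue as forebrain that included the hippocampus, and it is called forebrain here. WT pups were born from WT mothers, whereas all Ocn+/- and Ocn-/- pups were born from Ocn-/- mothers. Hence a difference between mutant and WT pups cannot be told apart from a difference in maternal genotype or litter, and the comparison of Ocn-/- with Ocn+/- pups is the only comparison in which the mothers had the same genotype. The question asked was whether the osteocalcin genotype of pup and mother goes with the levels of these genes, and whether it does so alike in both organs.

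ATF4 is a bZIP transcription factor at the core of the integrated stress response. Kinases that sense amino acid shortage (GCN2), unfolded protein in the endoplasmic reticulum (PERK), heme deficiency or viral RNA phosphorylate eIF2alpha, which lowers general translation while the ATF4 message is translated more. ATF4 protein then activates genes for amino acid synthesis, amino acid import, tRNA charging and redox balance, in part through C/EBP-ATF response elements near their promoters. Because much of this control is exerted on translation, the mRNA of Atf4 is not a measure of ATF4 protein.

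In annotation GENCODE M39 (genome GRCm39, the build used for counting), Atf4 lies at chr15:80139372-80141745, Ddit3 at chr10:127124268-127132163 and Trib3 at chr2:152179337-152191958. Chac1 is at chr2:119180757-119184866, Asns at chr6:7671667-7728461 and Psat1 at chr19:15882039-15924701. Phgdh is at chr3:98220484-98255047, Slc7a11 at chr3:49846975-50398070, Sesn2 at chr4:132219335-132237815 and Slc3a2 at chr19:8684245-8701108. All are protein-coding, and the counts are over exons of the whole gene. A core of the C/EBP-ATF response element, TGATGNAA read on either strand, was searched in the 300 bases upstream of the start of each gene's canonical transcript, which for several genes lies within the gene span given above. It was present upstream of 4 of the 10 genes, against 884 of 21757 protein-coding genes (4.06%). The stretches that hold it are shown because they are where a regulator shared by these genes could bind. They are written 5′ to 3′ on the strand of the gene, with the matching bases in capitals:
Chac1, chr2:119181494-119181573, plus strand: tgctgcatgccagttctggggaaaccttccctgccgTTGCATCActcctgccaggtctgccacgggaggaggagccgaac
Ddit3, chr10:127126325-127126404, plus strand: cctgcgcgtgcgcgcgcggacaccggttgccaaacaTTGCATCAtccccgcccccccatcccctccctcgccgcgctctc
Sesn2, chr4:132238028-132238107, minus strand: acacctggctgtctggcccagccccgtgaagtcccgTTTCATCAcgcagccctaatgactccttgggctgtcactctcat
Slc7a11, chr3:50398066-50398164, minus strand: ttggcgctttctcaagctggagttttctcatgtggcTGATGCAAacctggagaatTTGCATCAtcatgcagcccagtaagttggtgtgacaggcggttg

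The match began 159 bases before the start of the canonical transcript of Chac1, 199 bases before that of Ddit3 and 256 bases before that of Sesn2. Slc7a11 had 2 matches on opposite strands, beginning 65 and 46 bases before its start. A match of these letters describes the sequence and is not a measured binding site, and its lack in the windows of the other genes says nothing about their regulation.

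Counts summed to between 7302401 and 8289015 in testes libraries and between 6518151 and 14621584 in forebrain libraries. Values are given as normalized counts-per-million (CPM). A gene was called where its Benjamini-Hochberg adjusted p, from the edgeR quasi-likelihood model of every gene in that organ, was under 0.05. Forebrain WT 3 stood apart from the other WT forebrains: its chi-square per gene against them was 69.9 and 90.8, against 3.57 between WT 1 and WT 2, and it was the shallowest library. The study's legend for its clustering of forebrains names fewer WT forebrains than were analysed here and does not say which was left out. Results in forebrain are therefore also given without WT 3. Bglap counts were at or near 0 in these tissues and could not check the genotype labels. Phgdh shares 63.1% of its 50-base stretches with other annotated genes, mainly the pseudogene Gm7901, and 64.1% of the annotated exon bases of Ddit3 overlap exons of Mars1 on the opposite strand, where the strand setting of the counting is not given in the sources used here. Values of these 2 genes are thus less certain than those of the others.

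Among WT pups, the genes had different orders in the 2 organs. The order within an organ depends on the length used. Annotated exons of Ddit3 cover 5579 bases and its canonical transcript 979, against 5885 and 2620 for Psat1 and 2826 and 1893 for Phgdh. Ranks and ties given here hold for annotated exon length and may differ per length of transcript. Compared per length of annotated exon, in CPM per kilobase, Atf4 had the highest mean in both, with 71.6 ± 16.9 (SD, n = 2) in testes and 48.0 ± 1.63 (SD, n = 3) in forebrain. In testes it was followed by Slc3a2 (37.9 ± 0.167), the heavy chain that carries several amino acid exchangers to the cell surface. Next were Phgdh (22.2 ± 1.89) and Psat1 (15.8 ± 0.842), the enzymes of the opening steps of serine synthesis, and then Asns (9.59 ± 0.954), asparagine synthetase. Sesn2 (4.27 ± 0.994), a leucine-binding regulator of mTORC1, and Ddit3 (1.75 ± 0.200), which encodes the bZIP factor CHOP, were lower. Trib3 (0.971 ± 0.174), a pseudokinase that feeds back on the response, Slc7a11 (0.787 ± 0.00725), the cystine and glutamate exchanger xCT, and Chac1 (0.699 ± 0.237), which breaks down glutathione, came last, and the range of Chac1 overlapped those of Trib3 and Slc7a11.

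In forebrain, by contrast, Slc7a11 was second with 37.7 ± 2.56 CPM per kilobase (SD, n = 3), ahead of Slc3a2 with 29.8 ± 0.727. On this exon length, Psat1 (15.0 ± 0.864) and Phgdh (13.7 ± 1.81) did not differ beyond their spread. Neither did Sesn2 (1.58 ± 0.292), Chac1 (1.48 ± 0.268) and Ddit3 (1.43 ± 0.174), which need not hold per length of transcript. Trib3 was lowest (0.154 ± 0.0363), and with 3 to 10 counts in a library it did not pass the filter of the forebrain fit.

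**Figure D1:**
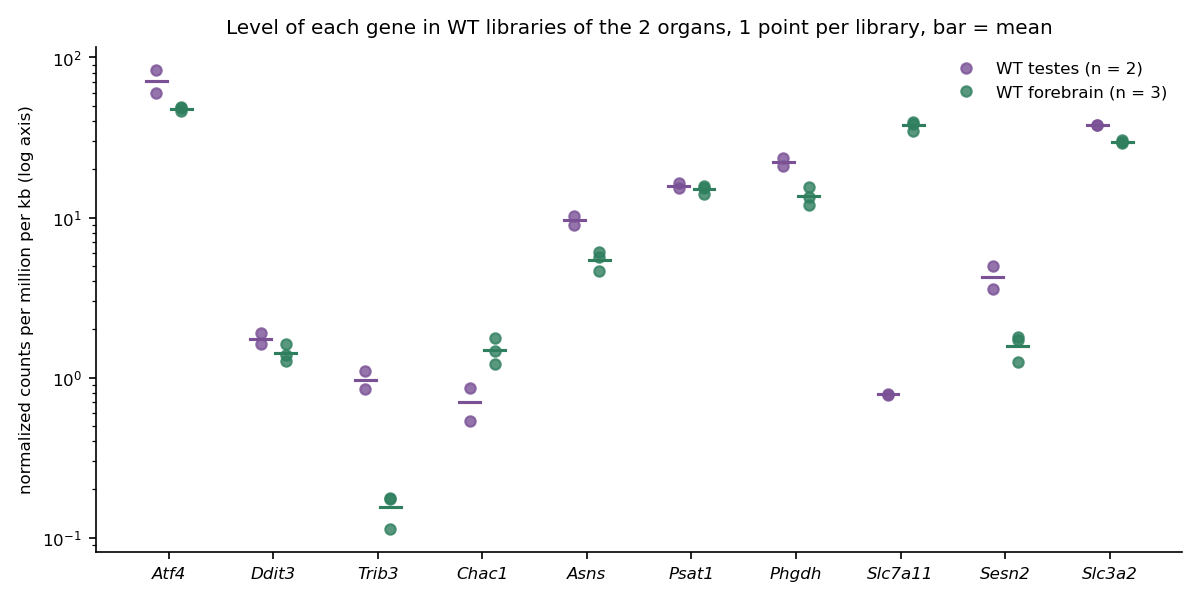
Level of each gene in WT libraries, in CPM per kilobase of annotated exon on a log axis, with 1 point per library and a bar at the mean (2 testes and 3 forebrain libraries). Slc7a11 differs most between the organs, at a mean of 0.787 in testes and 37.7 in forebrain, whereas Psat1 sits at 15.8 and 15.0.

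In the fit of all libraries, 8 of the 10 genes differed between WT testes and WT forebrain, where 71.1% of all 17800 genes tested did (36.9% higher and 34.2% lower in testes). Higher in testes were Trib3 (log2 fold change 2.63 ± 0.59 SE, adjusted p = 0.000381), Sesn2 (1.46 ± 0.21), Asns (0.81 ± 0.13), Phgdh (0.69 ± 0.14), Atf4 (0.58 ± 0.13) and Slc3a2 (0.35 ± 0.15, adjusted p = 0.0412). Slc7a11 was 47.9-fold lower in testes (-5.58 ± 0.20, adjusted p = 5.61e-17) and Chac1 2.09-fold lower (-1.06 ± 0.38, adjusted p = 0.0148). Ddit3 and Psat1 were not called, at 0.30 ± 0.30 and 0.08 ± 0.11. Scaling by library size alone moved the median of all genes from 0.08 to 0.39 on the log2 scale, and with it Chac1 lost its call (-0.74, adjusted p = 0.0847) and Psat1 gained one (0.40, adjusted p = 0.00377). The calls of Asns, Phgdh, Sesn2, Slc7a11 and Trib3 were kept in all 17 fits that left out 1 library. Atf4 lost its call without testes WT 2 (adjusted p = 0.0647) and Chac1 without testes WT 1 (0.161). Slc3a2 lost its call in 8 of those fits, those without either testes WT, any forebrain WT, forebrain Ocn-/- 1 or forebrain Ocn+/- 2 or 3 (largest adjusted p = 0.134), and also by DESeq2 (0.32, adjusted p = 0.0627), which called 7 of the 10 and 70.7% of all genes. With at least 10 counts in every library 6 were called, as Trib3 and Chac1 were not tested.

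In testes, Atf4 was lower in both mutant genotypes than in WT. It measured 160 and 223 CPM in the WT libraries, 126, 108 and 136 in Ocn+/- and 109, 136 and 110 in Ocn-/-. All 6 mutant libraries were below both WT libraries, the highest mutant at 136 and the lower WT at 160, and the WT libraries were further from each other than any mutant libraries were. Atf4 fell by 0.63 ± 0.15 on the log2 scale in Ocn+/- (1.55-fold, adjusted p = 0.0209) and by 0.69 ± 0.15 in Ocn-/- (1.62-fold, adjusted p = 0.0159). WT 2 held the highest value, and without it the difference of Ocn+/- from WT was -0.36 (adjusted p = 0.360) and that of Ocn-/- was -0.42 (adjusted p = 0.407). Leaving out a WT library of testes also lowered the number of all genes called, from 1350 to 131 (without WT 1) and 118 (without WT 2) in Ocn+/- and from 922 to 231 and 85 in Ocn-/-. The call was also lost without Ocn+/- 1 in the former comparison (adjusted p = 0.0691) and without Ocn-/- 1 in the latter (adjusted p = 0.0762).

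Chac1 showed the largest difference among the 10 genes in testes. Its counts were 12 and 20 in WT, 2, 3 and 5 in Ocn+/-, and 4, 1 and 1 in Ocn-/-, so each mutant library was below each WT library. As CPM these were 1.55 and 2.52 in WT, 0.266, 0.379 and 0.688 in Ocn+/-, and 0.474, 0.127 and 0.126 in Ocn-/-. Pooled over libraries, WT exceeded Ocn+/- by 4.65-fold (95% exact interval 2.23 to 10.6) and Ocn-/- by 8.25-fold (3.40 to 24.1), where the intervals cover counting error only. Chac1 fell by 2.97 ± 0.76 on the log2 scale in Ocn-/- (adjusted p = 0.0323) and measured -2.17 ± 0.71 in Ocn+/-, which did not pass (adjusted p = 0.0669) but was called by the likelihood ratio test (0.0166) and with only the 2 genotypes compared (0.0414). The call in Ocn-/- was lost without WT 1 (adjusted p = 0.107), WT 2 (0.406), Ocn-/- 2 (0.0535) or Ocn-/- 3 (0.0813). At so few counts the size of the difference is poorly determined.

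Asns was lower in Ocn+/- testes. It measured 136 and 117 CPM in WT and 90.2, 92.0 and 92.1 in Ocn+/-, while Ocn-/- libraries held 105, 131 and 140. The Ocn+/- libraries lay close together below all the others, and the Ocn-/- libraries overlapped WT. The share of all genes with Ocn+/- libraries so placed is not given here. Asns fell by 0.47 ± 0.13 in Ocn+/- (log2 scale, adjusted p = 0.0410) and its fold change in Ocn-/- was -0.01 ± 0.13 (adjusted p = 0.964). This call was lost without WT 1 (adjusted p = 0.341), WT 2 (0.164), Ocn+/- 1 (0.118), Ocn+/- 2 (0.0531) or Ocn+/- 3 (0.107). Between the mutants, every Ocn-/- library was above every Ocn+/- library, as were those of 7.52% of all genes, and the difference of 0.45 ± 0.12 did not pass (adjusted p = 0.251).

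The remaining 7 genes passed in neither mutant in testes. Trib3 measured 3.24 and 4.16 CPM in WT, 0.531, 1.26 and 2.06 in Ocn+/-, and 2.02, 1.15 and 3.03 in Ocn-/-, on 4 to 33 counts in a library. All mutants were below WT, at -1.52 ± 0.55 (log2 fold change, adjusted p = 0.0918) in Ocn+/- and -0.84 ± 0.52 (adjusted p = 0.359) in Ocn-/-. Psat1 was also below WT in each mutant library, at -0.18 ± 0.13 and -0.22 ± 0.13 (adjusted p = 0.387 and 0.332). Ddit3 measured 11.9 and 10.1 CPM in WT and between 3.53 and 11.0 in mutants, which overlapped (-0.63 ± 0.35 and -0.51 ± 0.35).

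Phgdh and Slc7a11 lay on the other side. Phgdh measured 74.9 and 66.1 CPM in WT, 104, 82.9 and 103 in Ocn+/-, and 86.0, 83.1 and 101 in Ocn-/-. Slc7a11 measured 13.9 and 13.6 CPM in WT, 17.3, 26.5 and 23.4 in Ocn+/-, and 22.6, 15.7 and 24.5 in Ocn-/-. All 6 mutant libraries were thus above WT for both genes, and neither passed in the edgeR quasi-likelihood test. Phgdh was at 0.46 ± 0.14 (log2 fold change, adjusted p = 0.0523) in Ocn+/- and 0.35 ± 0.14 (adjusted p = 0.141) in Ocn-/-, and Slc7a11 at 0.70 ± 0.23 (adjusted p = 0.0700) and 0.61 ± 0.23 (adjusted p = 0.129). Phgdh in Ocn+/- was close to the threshold: it was called higher by DESeq2 (adjusted p = 0.0366), with upper quartile scaling (0.0476), library size alone (0.0280), no filter (0.0248), at least 10 counts in every library (0.0448), the likelihood ratio test (0.0378) or only the 2 genotypes compared (0.0351). Sesn2 (0.10 ± 0.20 and 0.04 ± 0.20) and Slc3a2 (-0.13 ± 0.17 and -0.27 ± 0.17) overlapped WT.

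In sum of calls, 2 of the 10 genes were lower and 0 higher in Ocn+/- testes, where 4.36% of all 16361 genes were lower and 3.89% higher (8.25% in all). For Ocn-/- the count was again 2 lower and 0 higher, against 3.09% and 2.54% of all genes (5.64% in all). At an unadjusted p under 0.05 there were 6 in Ocn+/- and 4 in Ocn-/-, as were 25.9% and 23% of all genes. DESeq2 called 3 in Ocn+/-, with Atf4 and Asns lower and Phgdh higher, and 1 in Ocn-/-, Atf4, where it called 10.4% and 8.09% of all genes. The medians of the 10 fold changes were -0.33 and -0.24 on the log2 scale, and those of all genes 0.01 and -0.01. The 2 comparisons share the WT libraries. All mutant libraries lay below WT for 4 of the 10 genes (Atf4, Trib3, Chac1 and Psat1) and above for 2 (Phgdh and Slc7a11), and 13.6% and 12.5% of all genes did so. The split of calls moved with scaling: with library size alone, 1 gene was lower (Atf4) and 2 were higher (Phgdh and Slc7a11) in Ocn+/-, as the higher share of all calls went from 47.2% to 68.1% (Ocn+/-) and from 45.1% to 65.2% (Ocn-/-).

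**Figure D2:**
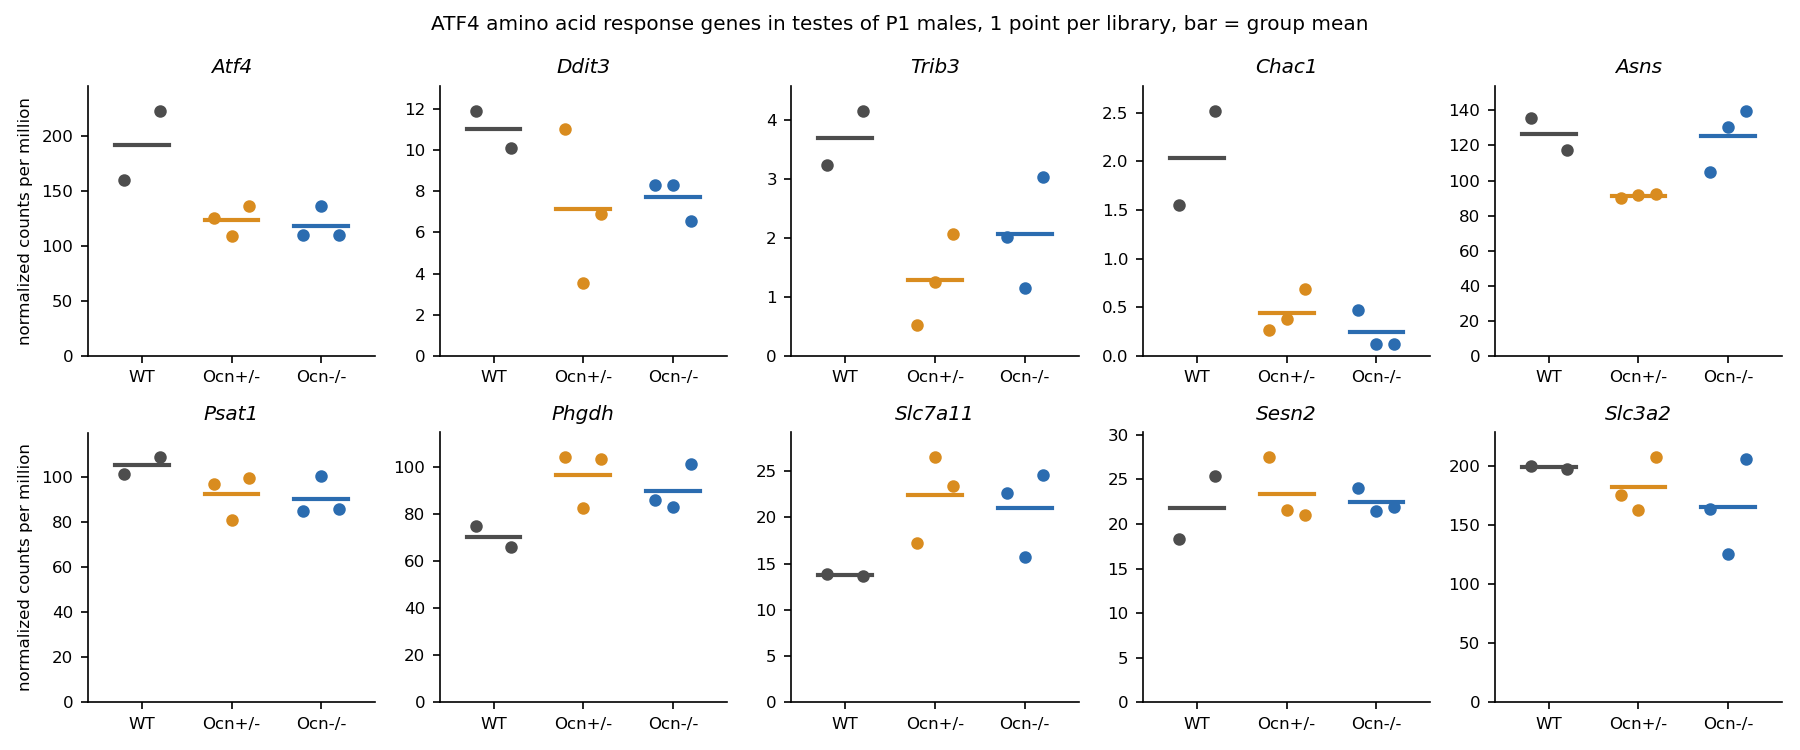
CPM of the 10 genes in testes by genotype, with 1 point per library and a bar at the group mean (WT n = 2, Ocn+/- n = 3, Ocn-/- n = 3). The mutant points of Atf4, Trib3, Chac1 and Psat1 lie below both WT points, those of Phgdh and Slc7a11 above, and the Ocn+/- points of Asns sit together at 90.2 to 92.1.

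Summed levels of several cell type markers differed between the same testes libraries. The summed level of 6 Leydig cell markers (Cyp17a1, Cyp11a1, Hsd3b1, Insl3, Star and Lhcgr, none at 0 in any library) was 1772 and 1691 CPM in WT and 714 to 1249 in mutants. Of the 6, 1 was called lower in each mutant, where 4.36% (Ocn+/-) and 3.09% (Ocn-/-) of all genes were. The fold change was negative for 5 and positive for 1 in each. The sum of 4 endothelial markers was 503 and 485 CPM in WT and 301 to 371 in mutants. Of these, 2 were called lower in Ocn+/- and 3 in Ocn-/-, and 1 had a positive fold change in each. The sum of 5 erythroid genes was 6860 and 2596 in WT and 864 to 3940 in mutants, with 0 called and all fold changes negative. Sertoli cell markers (1435 and 1292 CPM in WT, 1225 to 1920 in mutants) and germ cell markers (300 and 350 in WT, 281 to 332 in mutants) overlapped in sum, while the Sertoli marker Sox9 was called higher in both mutants. Microglia and macrophage markers summed to 57.0 and 55.1 CPM in WT, 62.4 to 90.3 in Ocn+/- and 33.6 to 63.4 in Ocn-/-, and 1 of the 4, Cx3cr1, was called higher in Ocn+/-. Adipocyte markers went the other way, at 15.9 and 10.5 CPM in WT and 17.2 to 23.8 in mutants, with 1 or 2 of the 4 genes at 0 in each library. Choroid plexus markers, low in this tissue, summed to 44.3 and 39.4 CPM in WT and 32.3 to 38.2 in mutants. The smooth muscle genes Acta2, Myh11 and Tagln summed to 855 and 1057 CPM in WT and 634 to 913 in mutants. All 3 had a negative fold change in both mutants and 0 were called. In bulk RNA, fewer cells of a type and less RNA per cell cannot be told apart, and the part of these marker differences in the values of Atf4 and Chac1 was not tested.

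In forebrain, Chac1 and Asns stood above WT. Chac1 measured 3.43, 2.88 and 4.09 CPM in WT, 6.36, 5.81 and 7.19 in Ocn+/-, and 6.07, 4.96 and 6.17 in Ocn-/-. All mutant libraries were above all WT libraries, on 23 to 107 counts. Chac1 rose by 0.92 ± 0.23 on the log2 scale in Ocn+/- (1.89-fold, adjusted p = 0.0289) and measured 0.74 ± 0.23 in Ocn-/- (adjusted p = 0.0644), which did not pass. In Ocn-/- it was called with library size alone (adjusted p = 0.0464) and by the likelihood ratio test (0.0491). Without WT 3 the fold changes in Ocn+/- and Ocn-/- were 1.02 ± 0.25 (adjusted p = 0.0558) and 0.85 ± 0.25 (adjusted p = 0.107). The call in Ocn+/- was also lost without WT 1 (adjusted p = 0.0771), WT 2 (0.104), Ocn+/- 1 (0.0678) or Ocn+/- 3 (0.104), while the fold change stayed between 0.80 and 1.02.

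Asns measured 59.6, 64.3 and 48.4 CPM in WT, 73.1, 79.3 and 82.1 in Ocn+/-, and 70.9, 71.7 and 76.6 in Ocn-/-. Again the 6 mutant libraries were above the WT ones, of which WT 3 was lowest. Asns rose by 0.44 ± 0.10 in Ocn+/- (log2 scale, 1.35-fold, adjusted p = 0.0200) and was at 0.34 ± 0.10 in Ocn-/- (adjusted p = 0.0576). In Ocn-/- it was called by DESeq2 (adjusted p = 0.0325), without a filter (0.0163), with at least 10 counts in every library (0.0491) and by the likelihood ratio test (0.0408). Without WT 3 the fold changes in Ocn+/- and Ocn-/- were 0.34 ± 0.09 (adjusted p = 0.0932) and 0.24 ± 0.09 (adjusted p = 0.219). The call in Ocn+/- was also lost without Ocn+/- 2 (adjusted p = 0.0643) or Ocn+/- 3 (0.0828).

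Atf4 itself was not called in forebrain. It measured 104, 106 and 98.2 CPM in WT, 124, 128 and 115 in Ocn+/-, and 113, 103 and 115 in Ocn-/-. The Ocn+/- libraries were all above WT (0.25 ± 0.08, adjusted p = 0.0879) and the Ocn-/- libraries overlapped WT (0.10 ± 0.08, adjusted p = 0.495). How many of all genes had only the Ocn+/- libraries above WT is not given here. Ddit3 went below WT in all 6 mutants, with 6.41, 8.18 and 6.94 CPM in WT, 5.55, 6.04 and 4.64 in Ocn+/- and 4.87, 4.76 and 5.04 in Ocn-/-, and did not pass (-0.41 ± 0.21, adjusted p = 0.275, and -0.55 ± 0.21, adjusted p = 0.126).

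The serine synthesis enzymes were at higher values in mutants without passing the test. Psat1 measured 81.0, 75.1 and 83.1 CPM in WT and 84.4 to 93.0 in the 6 mutants, which did not overlap (0.16 ± 0.08 and 0.15 ± 0.08). Phgdh measured 34.4, 39.9 and 30.2 in WT and 39.7 to 47.4 in mutants, at 0.28 ± 0.12 (adjusted p = 0.176) and 0.35 ± 0.12 (adjusted p = 0.0811). Slc7a11 was the most abundant of the 10 by CPM, with 487, 544 and 553 in WT and 409 to 518 in mutants (-0.15 ± 0.09 and -0.19 ± 0.09). Sesn2 measured 5.11, 7.03 and 7.29 CPM in WT, 8.45, 8.06 and 7.46 in Ocn+/-, and 6.39, 5.43 and 6.85 in Ocn-/-. Its Ocn+/- libraries were above all others and its Ocn-/- libraries overlapped WT, and it did not pass (0.33 ± 0.20 and -0.03 ± 0.21). Trib3, not tested here, measured 0.346 to 0.534 CPM in WT and 0.338 to 0.799 in mutants, where the lowest Ocn-/- library (0.536) was just above the highest WT. For Sesn2 and Trib3, the share of all genes with a single mutant genotype so placed is not given here. Slc3a2 overlapped between all genotypes (0.05 ± 0.09 and -0.08 ± 0.09).

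Thus 2 of the 9 genes tested in forebrain were higher and 0 lower in Ocn+/-, where 1.21% of all 16076 genes were higher and 2.68% lower. In Ocn-/- 0 of 9 were called, against 4.85% of all genes (1.8% higher and 3.05% lower). At an unadjusted p under 0.05 there were 4 in Ocn+/- and 5 in Ocn-/-, as were 20.3% and 21.7% of all genes. DESeq2 called 2 in Ocn+/-, Chac1 and Asns, and 1 in Ocn-/- (Asns, adjusted p = 0.0325), where it called 5.59% and 6.97% of all genes. The medians of the 9 fold changes were 0.25 and 0.10 on the log2 scale, against 0.01 for all genes in both. All mutants were above WT for 3 genes (Chac1, Asns and Psat1) and below for 1 (Ddit3), as for 6.85% and 8.57% of all genes. Without WT 3, 0 of 10 genes passed in either mutant, while the share of all genes called dropped to 1.11% for Ocn+/- (3.89% with it) and 1.15% for Ocn-/-. With library size alone the higher share of all calls went from 31.0% to 47.7% for Ocn+/- and 37.2% to 64.5% for Ocn-/-.

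**Figure D3:**
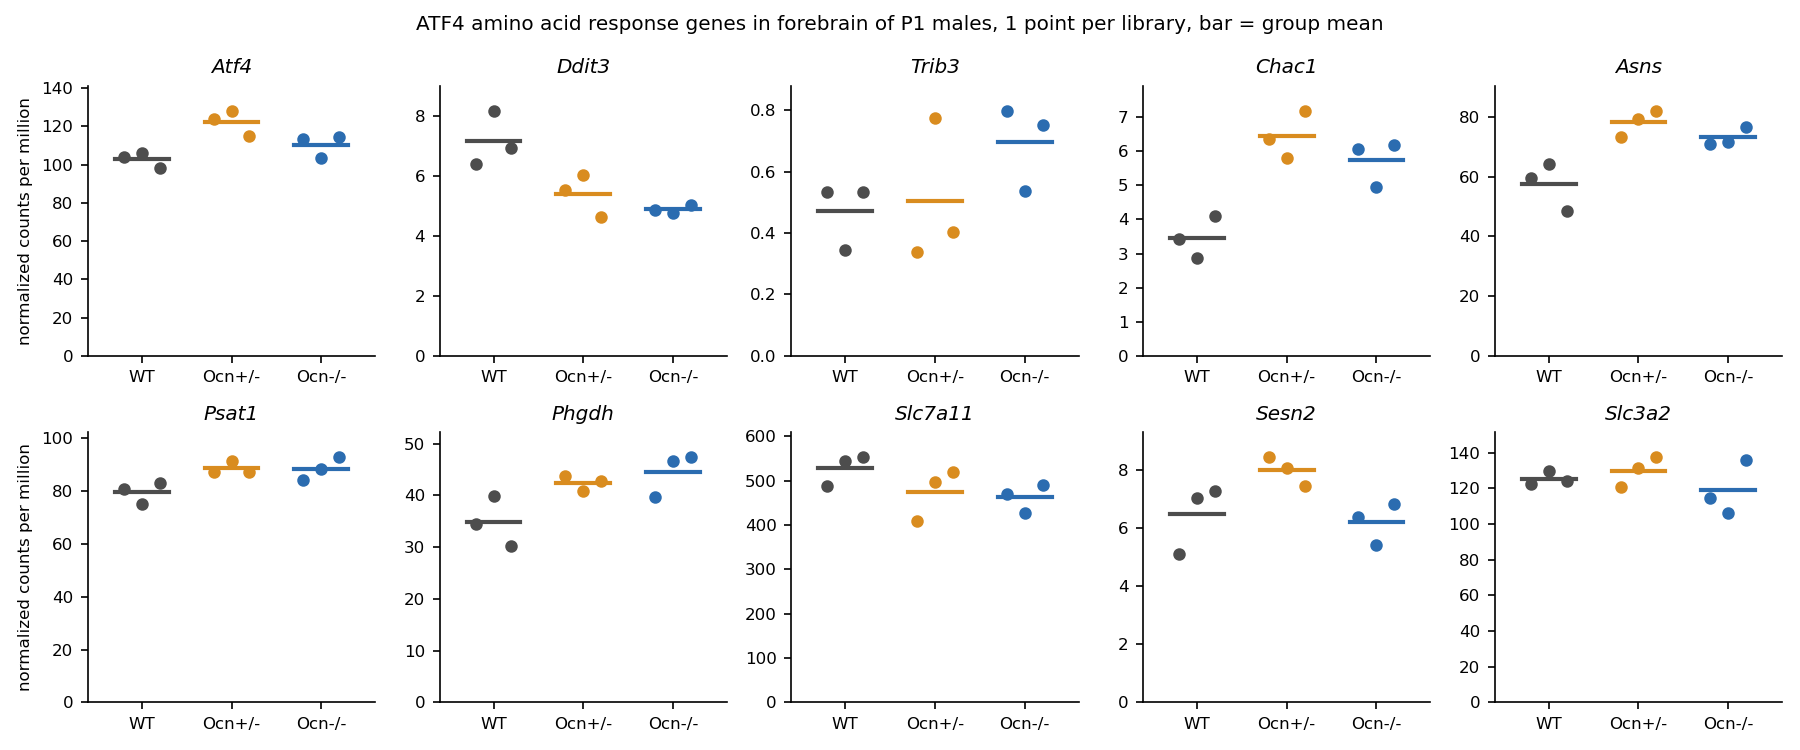
CPM of the 10 genes in forebrain by genotype, with 1 point per library and a bar at the group mean (n = 3 each). The mutant points of Chac1 (4.96 to 7.19) and Asns (70.9 to 82.1) lie above all WT points, and those of Ddit3 (4.64 to 6.04) below.

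The sum of 4 olfactory bulb markers differed between these libraries, while 0 of the 4 were called in either mutant, with or without WT 3. The fold change was positive for 3 and negative for 1 in each mutant. The summed level of 4 olfactory bulb genes (Tbx21, Cdhr1, Doc2g and Th) was 13.3 to 20.6 CPM in WT, 12.9 in Ocn-/- 1 and 60.8 to 106.7 in the other 5 mutants, with Cdhr1 giving most of it. At most 1 of the 4 genes was at 0 in any library. Neuron markers (6376 to 6727 CPM in WT, 6075 to 6457 in mutants) and radial glia and astrocyte markers (1314 to 1489 and 1303 to 1682) overlapped in sum, while Gfap was called higher in both mutants and Glul lower in Ocn-/-. Without WT 3, 0 radial glia and astrocyte markers were called higher in either mutant. Microglia and macrophage markers overlapped in sum as well (44.1 to 59.0 and 51.7 to 67.4), and 1 of the 4, Cx3cr1, was higher in both mutants (0.84 ± 0.17 and 0.91 ± 0.17), also without WT 3 (adjusted p = 0.0412 and 0.0237). Erythroid genes summed to 522 to 719 CPM in WT, 356 to 407 in Ocn+/- and 486 to 599 in Ocn-/-, and 3 of the 5 were called lower in Ocn+/- (2 without WT 3). The smooth muscle genes Acta2, Myh11 and Tagln summed to 12.2 to 13.0 CPM in WT and 7.75 to 11.4 in mutants. Choroid plexus markers summed to 569 to 735 CPM in WT, 570 to 860 in Ocn+/- and 320 to 530 in Ocn-/-. The endothelial sums overlapped (145 to 165 in WT, 119 to 167 in mutants), while 2 of the 4 genes were called lower in Ocn+/- (Pecam1 and Kdr) and 1 in Ocn-/- (Kdr). Of all genes, 2.68% and 3.05% were lower. Without WT 3, 0 of the 4 endothelial genes were called in either mutant. None of these erythroid, smooth muscle, choroid plexus or endothelial genes was at 0 in a forebrain library, and the part of any of these marker differences in the values of Chac1 and Asns was not tested.

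**Figure D4:**
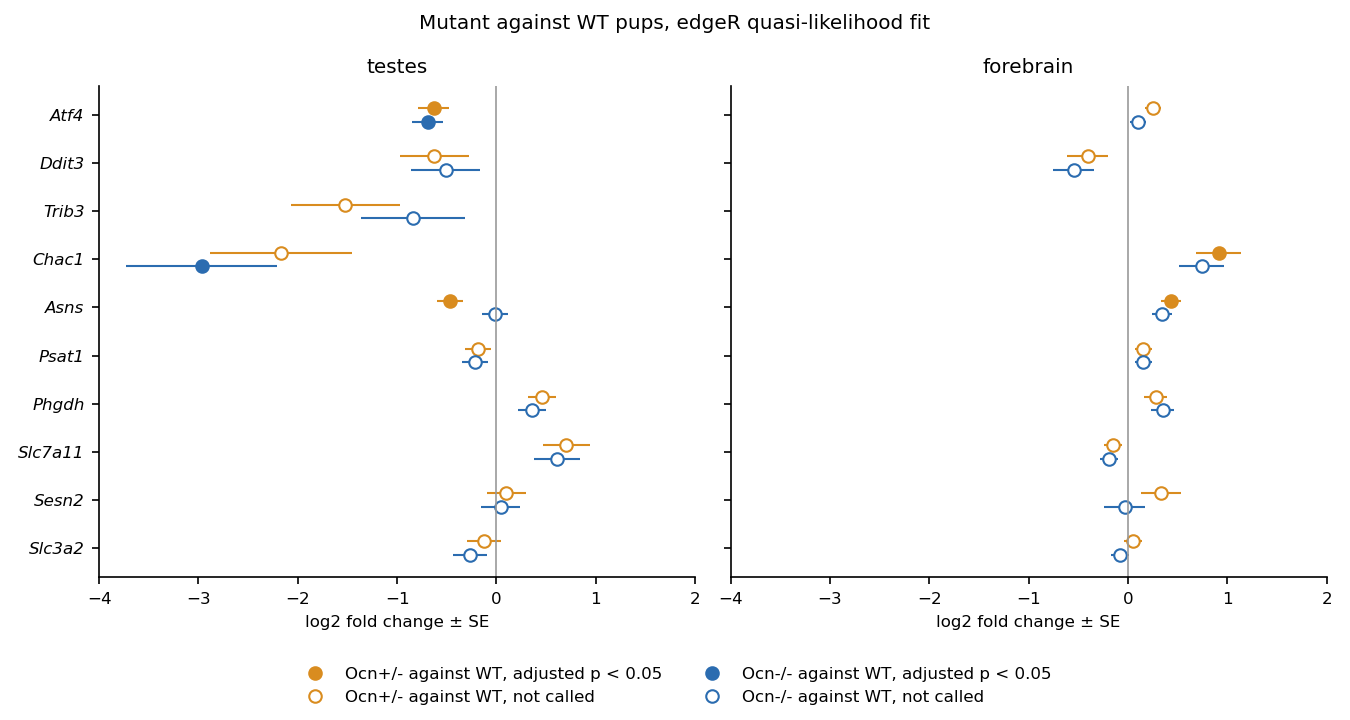
Log2 fold change ± SE of the 10 genes in Ocn+/- and Ocn-/- against WT from edgeR's quasi-likelihood fit of each organ, with filled points where the adjusted p is under 0.05 and open points otherwise. Atf4 and Chac1 lie left of 0 in testes and right of it in forebrain, where Trib3 was not tested.

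The difference between organs was tested directly, as the mean of both mutants minus WT in forebrain less the same in testes, in 1 fit of the 17 libraries. It passed for 4 of the 10 genes, where 2.96% of all 17800 genes passed. DESeq2 called the same 4 genes and 5.72% of all genes. It was positive for Chac1 (3.41 ± 0.50, adjusted p = 0.000455), Atf4 (0.85 ± 0.15, adjusted p = 0.00304) and Asns (0.64 ± 0.15, adjusted p = 0.0197), where 1.71% of all genes were positive. It was negative for Slc7a11 (-0.82 ± 0.20, adjusted p = 0.0315), where 1.24% were. Hence the mutants stood higher relative to WT in forebrain than in testes for the former 3, and lower for Slc7a11.

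Of these, Chac1 alone kept its call in all 17 fits that left out 1 library, with a largest adjusted p of 0.0258. It rests in testes on 1 to 20 counts in a library, and it was not testable when at least 10 counts were required in each library. Atf4 lost its call without testes WT 2 (adjusted p = 0.0957). Asns lost it without testes WT 1 (0.155), testes WT 2 (0.0538) or forebrain WT 3 (0.0724). Slc7a11 lost it without testes WT 1 (0.141), testes WT 2 (0.186), forebrain WT 2 (0.0649), forebrain WT 3 (0.0663) or forebrain Ocn-/- 2 (0.0527). The other 6 genes did not pass, among them Trib3 (adjusted p = 0.259) and Psat1 (0.37 ± 0.13, adjusted p = 0.123).

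Ocn-/- and Ocn+/- pups, all born from Ocn-/- mothers, were compared within each organ. None of the 10 genes passed in testes by edgeR's quasi-likelihood test, where fold changes ran from -0.80 to 0.68 on the log2 scale and 1 gene, Asns, had an unadjusted p under 0.05 (11.5% of all genes did). DESeq2 called Asns in this comparison (0.46, adjusted p = 0.0494), where it called 0.428% of all genes, as did edgeR without a filter on low counts (0.45, adjusted p = 0.0386). In forebrain 0 of 9 passed by edgeR and 0 by DESeq2, with fold changes from -0.36 to 0.07 and 0 at an unadjusted p under 0.05, where 3.2% of all genes had one and DESeq2 called 0.0311%. Over all genes, 0% were called in testes and 0.00622% in forebrain.

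Upstream of Atf4, none of the eIF2alpha kinase mRNAs passed the test in either organ. Eif2ak4, which encodes GCN2, measured 53.4 ± 2.07 CPM (SD, n = 2) in WT testes, 53.6 ± 10.4 in Ocn+/- and 53.1 ± 1.96 in Ocn-/- (n = 3 each). Eif2ak3, which encodes PERK, measured 37.9 ± 8.76, 37.7 ± 5.75 and 36.3 ± 4.72. Of the 7 genes for these kinases, their coactivator and the eIF2alpha phosphatase subunits, 1 was higher in Ocn+/- testes, Gcn1 (0.46 ± 0.14, adjusted p = 0.0497), the activator of GCN2, and 0 in Ocn-/- testes (8.25% and 5.64% of all genes were called). In Ocn-/- testes 2 of the 7 had an unadjusted p under 0.05, as did 23% of all genes, and DESeq2 called 0. In forebrain 1 was lower in Ocn-/-, Ppp1r15a (-0.75 ± 0.16, adjusted p = 0.0123), the ATF4-induced phosphatase subunit GADD34, and 0 in Ocn+/-, where 3 had an unadjusted p under 0.05 (20.3% of all genes did) and DESeq2 called Gcn1, as lower. DESeq2 called Gcn1 lower in Ocn-/- forebrain too, beside Ppp1r15a, and the difference between organs passed for Gcn1 by edgeR's quasi-likelihood test (-0.62 ± 0.13, adjusted p = 0.0145). Of all genes in forebrain, 3.89% were called in Ocn+/- and 4.85% in Ocn-/-. The call of Gcn1 in Ocn+/- testes was kept in 3 of 8 fits that left out 1 library, and that of Ppp1r15a in 7 of 9.

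Among 5 bZIP factors that partner with ATF4 or are induced with it, 1 rose and 1 fell in testes of each mutant, where 8.25% (Ocn+/-) and 5.64% (Ocn-/-) of all genes were called. Atf5, itself an ATF4 target, measured 20.5 to 22.6 CPM in WT, 41.3 to 51.7 in Ocn+/- and 27.0 to 39.1 in Ocn-/-. It rose by 1.07 ± 0.19 in Ocn+/- (log2 scale, adjusted p = 0.00368) and by 0.68 ± 0.19 in Ocn-/- (adjusted p = 0.0406), opposite to Atf4. Cebpb, a dimer partner of ATF4, measured 21.5 to 26.7 CPM in WT, 10.2 to 11.6 in Ocn+/- and 7.65 to 12.8 in Ocn-/-. It fell by 1.12 ± 0.23 in Ocn+/- (adjusted p = 0.00887) and by 1.24 ± 0.23 in Ocn-/- (adjusted p = 0.00542). Atf5 kept its call in 7 of 8 fits in Ocn+/- (lost without WT 1, adjusted p = 0.0723) and in 3 of 8 in Ocn-/-, and Cebpb in 6 of 8 (lost without WT 1 or WT 2, at most 0.170) and 7 of 8 (lost without WT 2, 0.171). In forebrain 0 of the 5 passed by edgeR's quasi-likelihood test, with 2 at an unadjusted p under 0.05 in Ocn+/- and 1 in Ocn-/- (20.3% and 21.7% of all genes), and DESeq2 called 0 and 1 (Cebpg, higher). Between organs, the difference passed for 0 of the 5 by edgeR's quasi-likelihood test, with 2 at an unadjusted p under 0.05 (18.7% of all genes), and for 1 by DESeq2 (Atf5).

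Several tRNA synthetases, which charge tRNAs and are classic ATF4 targets, were higher in mutant forebrain. All 12 tested had a positive fold change in Ocn+/- forebrain and 11 in Ocn-/-, and 5 and 3 of them rose, where 1.21% and 1.8% of all genes did. Aars1 rose by 0.51 ± 0.09 (adjusted p = 0.00389) and 0.37 ± 0.09 (adjusted p = 0.0276) on the log2 scale, Cars1 by 0.47 ± 0.12 and 0.44 ± 0.12 (adjusted p = 0.0286 and 0.0363), and Yars1 by 0.47 ± 0.10 and 0.45 ± 0.10 (adjusted p = 0.0101 and 0.0125). Gars1 and Nars1 rose in Ocn+/- as well. The summed level of the 12 was 1200, 1220 and 1086 CPM in WT and 1307 to 1463 in mutants, without overlap. In testes 0 of 12 passed in either mutant by edgeR's quasi-likelihood test, at sums of 1079 and 1076 CPM in WT and 1052 to 1182 in mutants, and 7 and 3 had an unadjusted p under 0.05 (25.9% and 23% of all genes did). DESeq2 called 2 (Aars1 and Iars1) and 1 (Iars1), all higher, where it called 10.4% and 8.09% of all genes. The difference between organs passed for 0 of the 12 by edgeR's quasi-likelihood test (5 at an unadjusted p under 0.05, as were 18.7% of all genes) and for 1 by DESeq2 (Nars1), so the list was not shown to differ between forebrain and testes. Without forebrain WT 3, the lowest of the WT sums, 1 passed in Ocn+/- (Aars1) and 0 in Ocn-/-, with medians of 0.24 and 0.21 against 0.29 and 0.26 with it. Without Ocn+/- 3, 1 passed in Ocn+/- as well (Aars1), and without WT 1, 1 passed in Ocn-/- (Yars1). The calls kept in 9 fits numbered 9 (Aars1), 7 (Yars1), 6 (Cars1), 5 (Nars1) and 4 (Gars1) in Ocn+/-, and 8 (Yars1), 6 (Aars1) and 5 (Cars1) in Ocn-/-.

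Of 8 amino acid transporters, 3 rose in Ocn+/- forebrain and 2 in Ocn-/- (1.21% and 1.8% of all genes did), while 5 had a positive and 3 a negative fold change in each. Slc7a1, the cationic amino acid transporter CAT1, measured 112 to 126 CPM in WT, 158 to 170 in Ocn+/- and 140 to 173 in Ocn-/-. It rose by 0.47 ± 0.09 (adjusted p = 0.00480) and 0.39 ± 0.09 (adjusted p = 0.0148), and the former call was kept in all 9 fits that left out 1 library, the latter in 7 (lost without WT 2 or WT 3, at most 0.0642). Slc1a4, a carrier of neutral amino acids, rose by 0.34 ± 0.08 and 0.32 ± 0.08 (adjusted p = 0.0225 and 0.0271), and Slc6a9, the glycine transporter GlyT1, by 0.44 ± 0.12 in Ocn+/- (adjusted p = 0.0402). The calls of Slc1a4 were kept in 5 of 9 fits in each mutant (largest adjusted p = 0.0891 and 0.105), and that of Slc6a9 in 3 of 9, being lost without any 1 of the WT or Ocn+/- libraries (largest 0.130). Without WT 3, 1 of 8 passed in Ocn+/- and 0 in Ocn-/-. In testes 1 of the 8 passed by edgeR's quasi-likelihood test, Slc6a9, which was higher in both mutants (0.79 ± 0.20 and 0.82 ± 0.20, adjusted p = 0.0256 and 0.0254), where 3.89% and 2.54% of all genes were. Its call was kept in 6 of 8 fits in Ocn+/- and 4 of 8 in Ocn-/-, and was lost without either WT library in both. DESeq2 called Slc38a1, a glutamine transporter, as lower in Ocn+/- testes as well. The difference between organs passed for Slc7a1 (0.86 ± 0.17, adjusted p = 0.0108).

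Of 9 enzymes of serine, one-carbon and proline metabolism, 1 rose in Ocn+/- forebrain, Mthfd1l (0.76 ± 0.19, adjusted p = 0.0313), a mitochondrial folate enzyme (kept in 4 of 9 fits and lost without WT 3, largest adjusted p = 0.123), and 0 passed in the other comparisons with WT by edgeR's quasi-likelihood test. At an unadjusted p under 0.05 these had 2 in Ocn+/- testes, 1 in Ocn-/- testes and 3 in Ocn-/- forebrain (25.9%, 23% and 21.7% of all genes), and DESeq2 called 0, 0 and 1 (Mthfd1l). Tested between organs, 2 of the 9 passed, where 2.96% of all genes did, and the difference was positive for Mthfd1l (0.77 ± 0.21, adjusted p = 0.0454) and negative for Aldh1l2 (-1.06 ± 0.24, adjusted p = 0.0158), another mitochondrial folate enzyme. Of 7 further stress outputs, Gdf15, a secreted stress hormone, rose in testes of both mutants, being at 2.46 and 3.03 CPM in WT, 7.70 to 13.0 in Ocn+/- and 7.26 to 11.6 in Ocn-/-. Its log2 fold changes were 1.96 ± 0.34 (adjusted p = 0.00358) and 1.74 ± 0.34 (adjusted p = 0.00709), kept in 7 of 8 fits (lost without WT 1, adjusted p = 0.0675) and 6 of 8 (lost without WT 1 or WT 2, at most 0.0827). Eif4ebp1, a repressor of cap-dependent translation, rose in Ocn+/- testes (0.61 ± 0.18, adjusted p = 0.0455), and Ddit4, an inhibitor of mTORC1, fell in Ocn+/- forebrain by 0.42 ± 0.11 (adjusted p = 0.0368). These calls were kept in 3 of 8 fits (largest adjusted p = 0.276) and 4 of 9 (0.153). DESeq2 also called Vldlr, a lipoprotein receptor, as lower in Ocn-/- testes (-0.91 ± 0.28 by edgeR, adjusted p = 0.0934). Over all 48 genes of these 6 lists, 5 were higher and 1 lower of 47 tested in Ocn+/- testes, and 3 higher and 1 lower in Ocn-/- testes, where 8.25% and 5.64% of all genes were called. In forebrain 9 were higher and 1 lower of 46 tested in Ocn+/- (1.21% and 2.68% of all genes), and 5 and 1 in Ocn-/- (1.8% and 3.05%). Without forebrain WT 3, the only higher calls left were 1 transporter and 1 synthetase in Ocn+/-, and 0 were left in Ocn-/-. Between Ocn-/- and Ocn+/-, 0 of these genes passed in either organ by edgeR's quasi-likelihood test or by DESeq2.

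**Figure D5:**
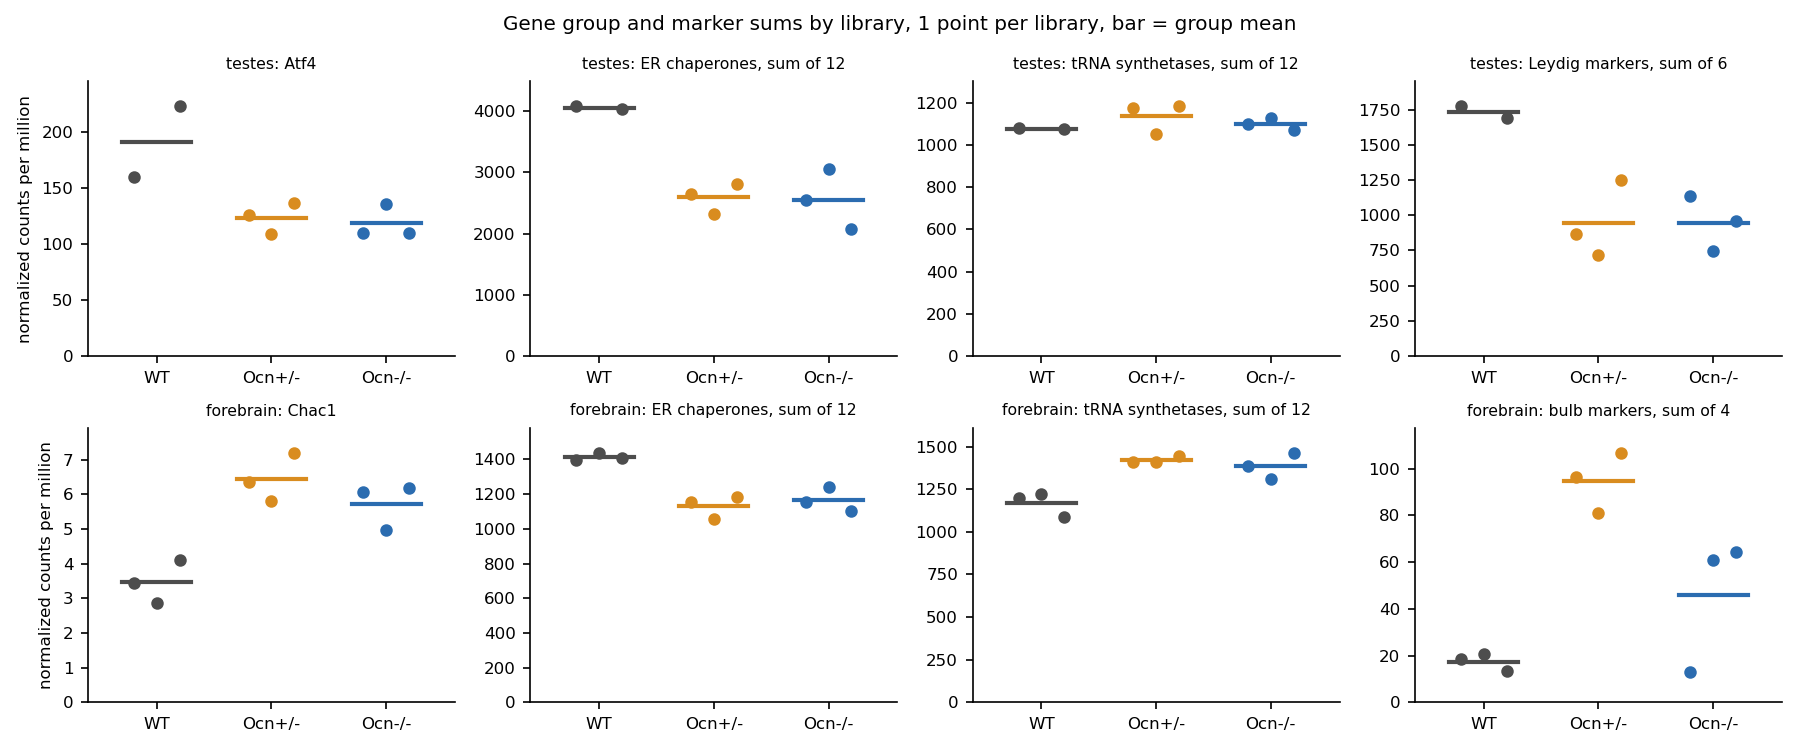
CPM of Atf4 (testes) or Chac1 (forebrain), and summed over 12 chaperones of the endoplasmic reticulum (ER), 12 tRNA synthetases and 6 Leydig cell or 4 olfactory bulb markers, with 1 point per library and a bar at the group mean. Chaperone sums are lower in mutants in both organs (2074 to 3049 against 4030 and 4078 in testes, 1058 to 1243 against 1395 to 1437 in forebrain), and synthetase sums are higher in mutant forebrain (1307 to 1463 against 1086 to 1220) and overlap in testes.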

How the data were processed

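Poly-A RNA libraries of testes and forebrain were sequenced by the authors, whose reads were trimmed with Trim Galore 0.6.6, aligned with STAR 2.7.8a and counted with RSEM 1.3.3 against GRCm39. The authors deposited RSEM expected counts, which are estimated counts that need not be whole, and they were rounded to whole numbers here. Reads shared between similar genes are divided by RSEM, which can shift counts between Phgdh and its pseudogenes. The annotation release and strand setting of the counting are not given in the sources used here. Gene names, exon lengths and upstream sequences came from GENCODE M39, which held 54749 of the 55359 gene IDs. A second row named Ddit3, on 0 to 3 counts, was not used.

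Each organ was fitted with edgeR 4.0.16 (R 4.3.3) on all 3 genotypes: filterByExpr by genotype, TMM scaling and the robust quasi-likelihood test, with Benjamini-Hochberg adjustment over all genes tested and 0.05 as threshold. A joint fit of the 17 libraries gave the comparison of organs and the difference between them. It treated all libraries as separate animals, while the sources do not say whether testes and forebrain came from the same pups. The fits were also run on simulated counts with the same spread for every gene, unlike real libraries, and no result here rests on that run. Nothing says that libraries came from separate litters, so p-values measure the spread between these libraries. Counting intervals, given for Chac1, cover counting error only. Alternatives were upper quartile scaling, library size alone, DESeq2 1.42.0, other filters, the likelihood ratio test, the replicate block and leaving out each library. The members and gene lists were chosen with earlier results of these data known. All 10 members were named in each comparison. From the other lists, called genes were named, at most 3 by size and direction.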

Additional observations from a re-analysis of the deposited data

Results flagged for a closer look

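The groups held 2 or 3 libraries, too few to test a single library against its group. For 4 of the 10 genes the difference of mutant from WT pups differed between the organs, where 2.96% of all genes passed. The value tested was the mean of both mutants minus WT in forebrain less the same in testes (log2 scale, edgeR's quasi-likelihood test). It was 3.41 for Chac1 (adjusted p = 0.000455), 0.85 for Atf4 (adjusted p = 0.00304), 0.64 for Asns (adjusted p = 0.0197) and -0.82 for Slc7a11 (adjusted p = 0.0315). Calls other than that of Chac1 were lost in some fits that left out 1 library, as given above. Marker sums differed between the same libraries, with 1 of 6 Leydig cell markers and 0 of 4 olfactory bulb markers called in each mutant. The Leydig cell marker sum was 1772 and 1691 CPM in WT testes and 714 to 1249 in mutants, and the olfactory bulb marker sum was 13.3 to 20.6 CPM in WT forebrain and 12.9 to 106.7 in mutants, and their part in these differences was not tested.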

How the results depend on the processing

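Of the 10 genes, the number called in Ocn+/- testes was 2, and 3 by DESeq2, with upper quartile scaling, with library size alone or with at least 10 counts in every library (Phgdh higher in each), 4 without a filter on low counts (Phgdh and Slc7a11 added), 4 by the likelihood ratio test, 5 when only the 2 genotypes compared were fitted and 0 to 4 when 1 library was left out. Calls over all genes moved too, from 1350 to 2149 without a filter, 1806 by the likelihood ratio test, 2084 with 2 genotypes and 118 without WT 2. In Ocn-/- testes it was 2, and 1 each by DESeq2 (which gave Chac1 no adjusted p), with at least 10 counts required in every library (which removed Chac1) and with the replicate number as a block (where Chac1 reached an adjusted p of 0.0629), and 0 to 2 when 1 library was left out. Calls over all genes in Ocn-/- testes went from 922 to 1323 by DESeq2, 1034 with at least 10 counts and 836 with the block. Between Ocn-/- and Ocn+/- testes the number of the 10 genes called was 0, and 1 by DESeq2 or without a filter, where 70 and 252 of all genes were called. In Ocn+/- forebrain it was 2, and 0 to 2 when 1 library was left out. In Ocn-/- forebrain it was 0, and 1 with library size alone, by DESeq2 or with at least 10 counts in every library, and 2 without a filter or by the likelihood ratio test. Calls over all genes there went from 780 to 643, 1121, 837, 1502 and 1140, in that order. The difference between organs was called for 4, and for 1 to 4 when 1 library was left out. Except where a sentence names its construction, the cause was not tested. Among fold changes of single genes, 425 of 456 values under other settings and 618 of 679 with 1 library left out kept direction and side of the threshold. Those near 0 reversed. In Ocn-/- testes Asns (-0.01) was 0.062 with library size alone, 0.0023 with only the 2 genotypes compared and -0.10 to 0.12 with 1 library left out. In Ocn-/- forebrain Sesn2 (-0.03) was 0.067 with library size alone, 0.018 when Ocn-/- 1 alone was compared with WT (added after seeing the data, with 1 mutant library) and -0.20 to 0.059 with 1 library left out, and Slc3a2 (-0.08) was 0.025 with library size alone. With 1 library left out, Sesn2 in testes ran from -0.11 to 0.37 in Ocn+/- and -0.17 to 0.32 in Ocn-/-, and the organ difference from -0.058 to 0.33 for Ddit3, -0.17 to 0.026 for Phgdh and -0.16 to 0.31 for Sesn2. The replicate numbers did not pair libraries, as deviations of same-numbered libraries correlated at -0.09 to 0.09 in testes and -0.04 to 0.15 in forebrain and 2 of 8 and 5 of 9 libraries were most like their own number. The block changed no other call of the 10 genes beside that of Chac1. Where 1 testes WT library was left out, the other was assumed to vary like the other groups. Depth limits Chac1 and Trib3 in testes and Trib3 in forebrain.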

Other observations

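Several of 12 chaperones of the endoplasmic reticulum (ER), known mainly as targets of the ATF6 and XBP1 arms of the unfolded protein response, were lower in mutants of both organs. In testes 4 of 12 fell in each mutant, where 4.36% (Ocn+/-) and 3.09% (Ocn-/-) of all genes did, and all 12 had a negative fold change in both. Hspa5, which encodes the chaperone BiP, fell by 0.72 ± 0.15 in Ocn+/- (log2 scale, adjusted p = 0.0109) and by 0.63 ± 0.15 in Ocn-/- (adjusted p = 0.0241), and Hsp90b1 by 0.78 ± 0.17 and 0.90 ± 0.17 (adjusted p = 0.0157 and 0.00833). Calr fell by 0.55 ± 0.13 in both (adjusted p = 0.0173 and 0.0190). The 12 summed to 4078 and 4030 CPM in WT testes and 2074 to 3049 in mutants. The Leydig cell marker sum was also lower in mutants (1772 and 1691 against 714 to 1249), and its part in the chaperone values was not tested. When either WT library was left out, 0 passed in either mutant by edgeR's quasi-likelihood test, in fits where the number of all genes called fell from 1350 to 131 and 118 in Ocn+/- and from 922 to 231 and 85 in Ocn-/-. With all libraries, 9 in Ocn+/- and 7 in Ocn-/- had an unadjusted p under 0.05 (25.9% and 23% of all genes did), and DESeq2 called 6 and 4 (10.4% and 8.09%).

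In forebrain 3 of the 12, Hspa5, Hsp90b1 and Calr, fell in both mutants, where 2.68% and 3.05% of all genes did. The fold change was negative for 10 and positive for 2 in Ocn+/-, and negative for 9 and positive for 3 in Ocn-/-. Hspa5 fell by 0.38 ± 0.08 in Ocn+/- and 0.38 ± 0.08 in Ocn-/- (adjusted p = 0.0101 and 0.00977), kept in all 9 fits that left out 1 library in each comparison. Without forebrain WT 3, 2 of 12 passed in Ocn+/- and 1 in Ocn-/-. In the same forebrain libraries Ddit3, which the unfolded protein response also induces, was below WT in all mutants while Chac1 and Asns were above. The test of the difference between organs passed for 0 of the 12 chaperones by edgeR's quasi-likelihood test and by DESeq2, with 5 at an unadjusted p under 0.05 (18.7% of all genes).

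Of 8 targets of NRF2, a regulator of redox genes that also acts on Slc7a11, Gsr was higher in testes of both mutants (0.50 ± 0.13, adjusted p = 0.0271, and 0.55 ± 0.13, adjusted p = 0.0207), where 3.89% and 2.54% of all genes were, and 0 passed in forebrain by edgeR's quasi-likelihood test or by DESeq2 (2 in Ocn+/- and 1 in Ocn-/- at an unadjusted p under 0.05, as were 20.3% and 21.7% of all genes). The call of Gsr was kept in 4 of 8 fits that left out 1 library in Ocn+/- and in 5 of 8 in Ocn-/-, and was lost without either WT library in both. The difference between organs passed for 1 of the 8, Srxn1 (0.88 ± 0.24, adjusted p = 0.0454), where 2.96% of all genes passed.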
